A study of Mus musculus with 9 samples.

Results

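Acute-phase genes and the interleukin-6 (IL-6) signaling genes Lrg1, Serpina3n, Serpina3g, Saa3, Lcn2, Lbp, Hp, Il6, Socs3 and Osmr were followed in lung endothelial cells (ECs). A gene was taken with every probe set of the Affymetrix mouse genome array, a group of short probes read as 1 value, that the platform annotation assigns to it and to no other gene. In all, 9 of the 10 genes were measured, by 14 of the 34945 probe sets that name a single gene. Serpina3g had no probe set listed for it alone here and was not analysed here. The 9 genes belong to 18193 genes measured in the same way. ECs had been sorted by flow cytometry from the whole lungs of female NSG mice, an immunodeficient strain without T, B and NK cells that accepts human tumors, as cells positive for CD31 and negative for blood cell, epithelial, fibroblast, pericyte and cancer cell markers. Mice given cancer cells were 6 to 8 weeks of age at that time. In the group called metastasis B20 here, mice received the human breast cancer cells MDA-MB-231-LM2, a lung-seeking derivative of a single line, through the tail vein and B20.4.1.1, an antibody that blocks vascular endothelial growth factor A (VEGFA), at 10 mg/kg 2 times per week into the abdominal cavity. In the metastasis IgG group, mice with the same cancer cells received control IgG. The healthy IgG group consisted of age-matched mice without cancer cells that received control IgG, so that all 3 groups carried an antibody. Metastatic lungs were taken on day 21. Each group had 3 arrays, called biological replicates in the labels, and the study describes 3 mice per group, with metastatic mice chosen for a comparable load.

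Values are log2 intensities, and a difference of 1 stands for a fold of 2. The correlation of arrays within a group was 0.9906 to 0.9936 across the 18193 genes. Of 12 EC markers, 1 was called in metastasis IgG against healthy IgG arrays: Emcn, a sialomucin of capillaries and veins, was higher (0.43 ± 0.10, standard error of the difference), and that call was lost when any array but the first healthy array was left out. The summed intensity of the 12 markers was 89986 to 92267 in metastasis B20, 89439 to 92309 in metastasis IgG and 88539 to 91428 in healthy IgG arrays. For beta-actin, the log2 signal near the 3' end exceeded that near the 5' end, which grows as RNA degrades, by 0.526 to 0.62 in metastasis B20, 0.488 to 0.555 in metastasis IgG and 0.609 to 0.62 in healthy IgG arrays. The metastasis IgG and healthy IgG arrays did not overlap in this measure. For Gapdh it was 0.0601 to 0.1945 in metastasis B20, -0.0338 to 0.0995 in metastasis IgG and 0.0969 to 0.1762 in healthy IgG arrays. The part of RNA quality in the comparisons was not tested. Signals of other cell types were present in the sorted cells, and their values are given beside the genes they move with.

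The acute-phase response is the change in plasma proteins that follows infection or tissue injury. IL-6 and related cytokines bind receptors that share the chain gp130 (Il6st), Janus kinases phosphorylate STAT3, and STAT3, together with C/EBP factors and NF-kB, turns on genes of secreted defense proteins. SOCS3 closes the loop by blocking gp130 and the kinases. The liver is the main source of acute-phase proteins in blood, but ECs, epithelial cells and leukocytes make several of them, and ECs answer IL-6 mostly through soluble receptor and oncostatin M through OSMR.

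Promoters were searched because the 3 kinds of factor above are known to act on these genes. The 250 bases before the start and 50 bases after it were taken from RefSeq for GRCm38.p6, where 8 of the 10 genes had an entry and Lbp and Hp had none. The STAT motif TTCNNNGAA, which reads the same on both strands, occurred in 8.3% of 32851 promoters of this length, the C/EBP motif TTGCNNAA or its other strand TTNNGCAA in 10.8%, and the NF-kB consensus on either strand in 4.51%. At least 1 of these motifs was found in 5 of the 8 promoters, namely those of Il6, Saa3, Lcn2, Socs3 and Serpina3g, and in none of Lrg1, Serpina3n and Osmr. The share of all promoters with at least 1 of the 3 motifs was not counted, so 5 of 8 has no background here. The bases before the start of the 4 measured genes with a match are shown with the matches in capitals, none of which overlap. They are at chr5:30012864-30013113 (plus strand) for Il6, chr7:46715677-46715926 (minus strand) for Saa3, chr2:32387740-32387989 (minus strand) for Lcn2 and chr11:117969367-117969616 (minus strand) for Socs3.
Il6: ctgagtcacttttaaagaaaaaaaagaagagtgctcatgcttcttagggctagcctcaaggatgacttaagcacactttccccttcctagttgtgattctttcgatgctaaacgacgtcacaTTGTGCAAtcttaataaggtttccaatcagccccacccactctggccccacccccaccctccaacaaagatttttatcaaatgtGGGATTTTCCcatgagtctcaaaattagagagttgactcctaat
Saa3: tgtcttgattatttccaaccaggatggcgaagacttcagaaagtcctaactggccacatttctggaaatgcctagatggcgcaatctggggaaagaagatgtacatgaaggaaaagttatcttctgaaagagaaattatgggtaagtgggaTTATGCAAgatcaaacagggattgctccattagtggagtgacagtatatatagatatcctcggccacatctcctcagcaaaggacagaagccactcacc
Lcn2: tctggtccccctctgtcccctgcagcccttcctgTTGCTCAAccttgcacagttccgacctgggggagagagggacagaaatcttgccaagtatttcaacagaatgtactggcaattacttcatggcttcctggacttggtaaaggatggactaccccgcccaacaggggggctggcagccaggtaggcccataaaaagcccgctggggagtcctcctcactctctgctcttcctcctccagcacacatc
Socs3: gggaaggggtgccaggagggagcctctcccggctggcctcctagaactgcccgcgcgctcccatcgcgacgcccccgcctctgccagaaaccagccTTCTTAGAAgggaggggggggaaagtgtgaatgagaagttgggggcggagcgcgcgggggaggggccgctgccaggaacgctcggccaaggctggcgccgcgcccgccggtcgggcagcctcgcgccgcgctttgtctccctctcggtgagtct
The Il6 promoter held a C/EBP match, TTGTGCAA, beginning at base -128 and an NF-kB match, GGGATTTTCC, beginning at base -44. Saa3 held a C/EBP match at base -99 and Lcn2 a C/EBP match at base -216. Socs3 held the STAT match TTCTTAGAA at base -154. A match in letters says nothing of binding in these cells, and a promoter without a match may hold other sites. Only the listed start of each gene was searched, and for Saa3, Socs3, Osmr and Serpina3n it lay inside the annotated span of the gene. Other starts of these genes were not searched.

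RNA of Lrg1 and Serpina3n in cells sorted as ECs was about 4 times as high in metastasis IgG as in healthy IgG arrays, beside 10 of 14 macrophage markers that were also called higher. Of the 9 measured genes, 7 were called higher in metastasis IgG against healthy IgG arrays (limma, adjusted p under 0.05 over all genes), namely Lrg1, Serpina3n, Saa3, Lcn2, Lbp, Il6 and Osmr, and none was called lower. Over all genes, 5.55% were called higher, 3.46% lower and 9.01% in either direction. The median difference was 0.76 over the 9 genes and -0.0011 over all genes. The arrays of both groups did not overlap in 7 of the 9 genes, against 29.1% of all genes and 15.4% with the higher values in metastasis IgG. Serpina3n and Saa3 belong to a list of secreted factors that the study chose on the same metastasis model and Osmr to its list of inflammation genes, so their direction is not independent evidence. All genes followed here were chosen with earlier results of these data known, so the count of 7 is not independent evidence either.

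Lrg1, a secreted glycoprotein that modifies TGF-beta signaling in ECs, gave 11.59, 11.68 and 11.69 in metastasis B20 arrays, 11.44, 11.79 and 11.49 in metastasis IgG arrays, and 9.56, 9.62 and 9.61 in healthy IgG arrays. The healthy arrays lay within 0.1 of each other and far below all metastatic arrays. The difference of metastasis IgG and healthy IgG was 1.98 ± 0.10, a fold of 3.93 (95% interval 3.33 to 4.65, adjusted p = 5.05e-05 by limma). Serpina3n, a secreted inhibitor of serine proteases such as granzyme B and neutrophil elastase, was at 10.23, 10.26 and 10.25 in metastasis B20, 10.21, 10.05 and 10.22 in metastasis IgG, and 8.23, 7.84 and 8.08 in healthy IgG arrays. It too left a wide gap between the metastatic and the healthy arrays, with a difference of 2.11 ± 0.11 between metastasis IgG and healthy IgG (fold 4.30, 95% interval 3.60 to 5.15, adjusted p = 5.05e-05 by limma). Saa3, the serum amyloid A that mice make outside the liver, was at 8.38, 8.83 and 8.79 in metastasis B20, 8.48, 8.54 and 8.52 in metastasis IgG, and 7.40, 7.63 and 7.61 in healthy IgG arrays. Its metastasis IgG arrays were close together, and its first metastasis B20 array lay below them. Saa3 differed by 0.96 ± 0.09 between metastasis IgG and healthy IgG (fold 1.95, 95% interval 1.70 to 2.24, adjusted p = 0.00054 by limma). Lrg1, Serpina3n and Saa3 kept their call with each array left out in turn and in every other alternative in which they were tested, at adjusted p up to 0.000803, 0.00069 and 0.00416 by limma.

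**Figure D1:**
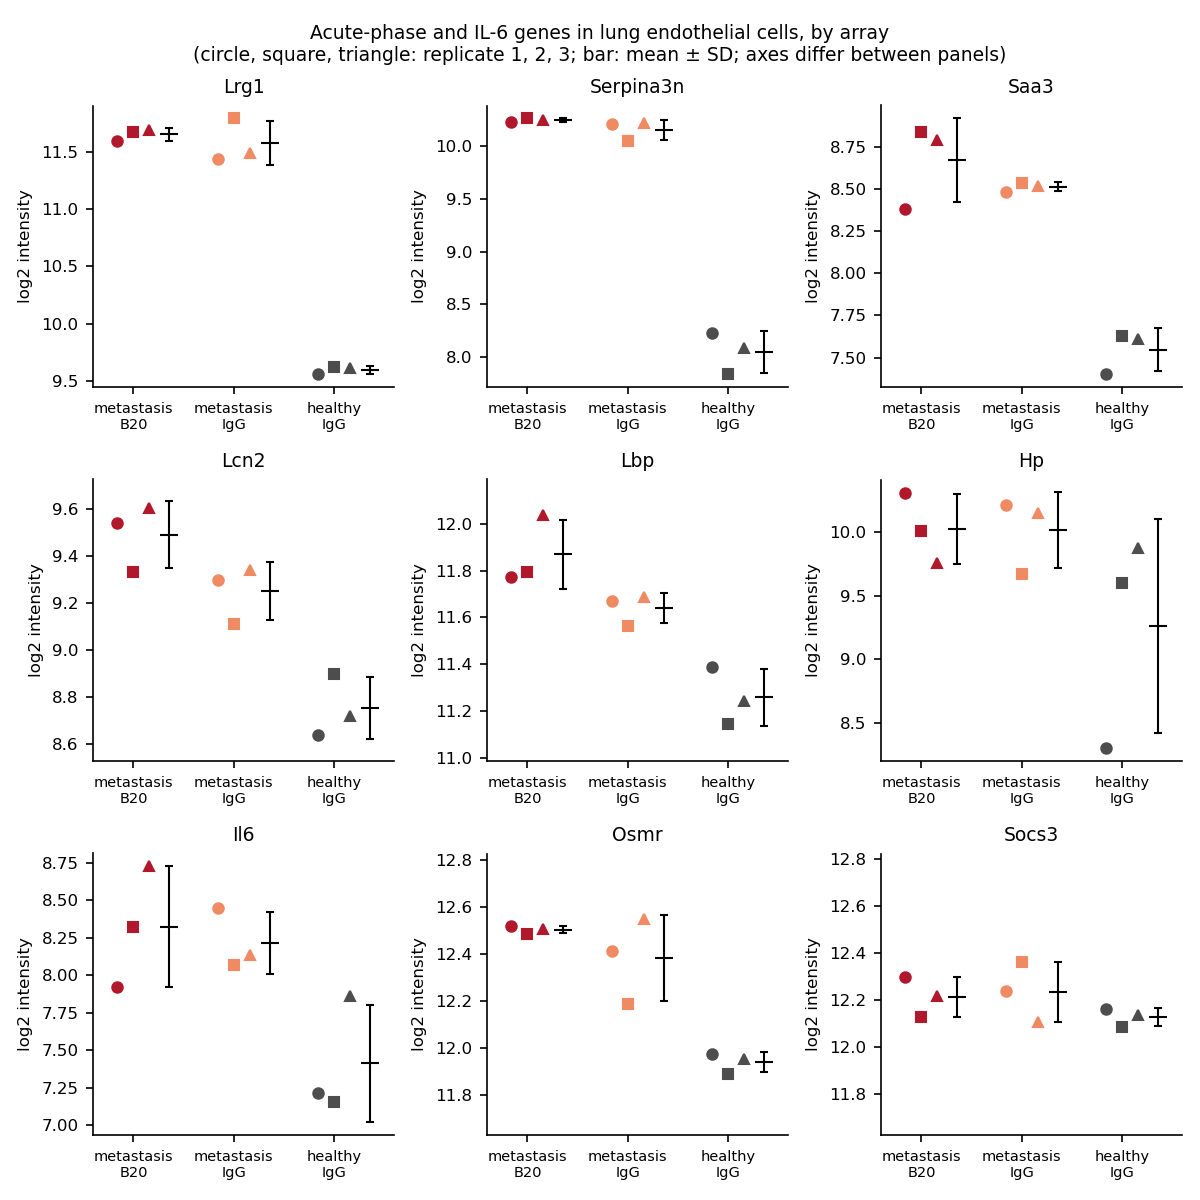
Log2 intensity (vertical axes, which differ between panels) of the 9 measured genes in metastasis B20, metastasis IgG and healthy IgG arrays, with 1 point per array and a bar for the mean ± SD of 3 arrays. All metastatic arrays of Lrg1 lie at 11.44 or above and its healthy arrays at 9.62 or below, whereas the groups overlap for Hp and Socs3.

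Smaller differences were seen for Lcn2 and Lbp, and none that passed the test for Hp. Lcn2, lipocalin-2, which withholds iron from bacteria by binding their siderophores, was at 9.54, 9.33 and 9.60 in metastasis B20, 9.30, 9.11 and 9.34 in metastasis IgG, and 8.64, 8.90 and 8.72 in healthy IgG arrays. The second array was the lowest within each metastatic group, and all metastatic arrays were above the healthy ones. Lcn2 was higher by 0.50 ± 0.10 in metastasis IgG than in healthy IgG arrays (adjusted p = 0.0199 by limma). Lbp, which carries bacterial lipopolysaccharide to CD14, was at 11.77, 11.79 and 12.04 in metastasis B20, 11.67, 11.56 and 11.69 in metastasis IgG, and 11.39, 11.15 and 11.24 in healthy IgG arrays. The 3 groups did not overlap in this probe set, and metastasis IgG exceeded healthy IgG by 0.38 ± 0.09 (adjusted p = 0.0359 by limma).

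Hp, haptoglobin, which binds free hemoglobin, was at 10.31, 10.01 and 9.76 in metastasis B20, 10.22, 9.67 and 10.16 in metastasis IgG, and 8.30, 9.60 and 9.88 in healthy IgG arrays. The first healthy array stood apart at more than 1 log2 unit below the other two, which reached into the range of the metastatic arrays. The difference of metastasis IgG and healthy IgG was 0.76 ± 0.37 and did not pass (adjusted p = 0.264 by limma, 95% interval -0.08 to 1.60). It was 0.28 without the first healthy array (adjusted p = 0.445) and 1.07 without the third (adjusted p = 0.143). Genes of airway epithelium varied in the same arrays. Scgb1a1, the secretoglobin of club cells, was at 12.04, 11.08 and 10.02 in metastasis B20, 12.09, 10.39 and 11.36 in metastasis IgG, and 9.47, 12.03 and 12.34 in healthy IgG arrays. Scgb3a2, another airway secretoglobin, was at 10.72, 10.17 and 8.03 in metastasis B20, 10.47, 8.42 and 9.52 in metastasis IgG, and 8.60, 10.87 and 12.09 in healthy IgG arrays. Within every group, Hp, Scgb1a1 and Scgb3a2 put the 3 arrays in the same order, a description of 9 arrays for a pair of genes picked after their values were seen. The 13 epithelial markers summed to 19636 to 27141 in metastasis B20, 18447 to 26236 in metastasis IgG and 11679 to 28130 in healthy IgG arrays (linear intensity), with the lowest sum in the first healthy array, and 2 of them, Sftpb and Sftpd, were called higher in metastasis IgG. The first healthy array also had the lowest sum of the 9 arrays for macrophage (6272), neutrophil (1589) and fibroblast (10730) markers. The same held for pericyte and smooth muscle (4103) and mesothelial (769) markers, but not for endothelial or hepatocyte markers. The part of RNA from epithelial or other cells in the Hp values was not tested.

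**Figure D2:**
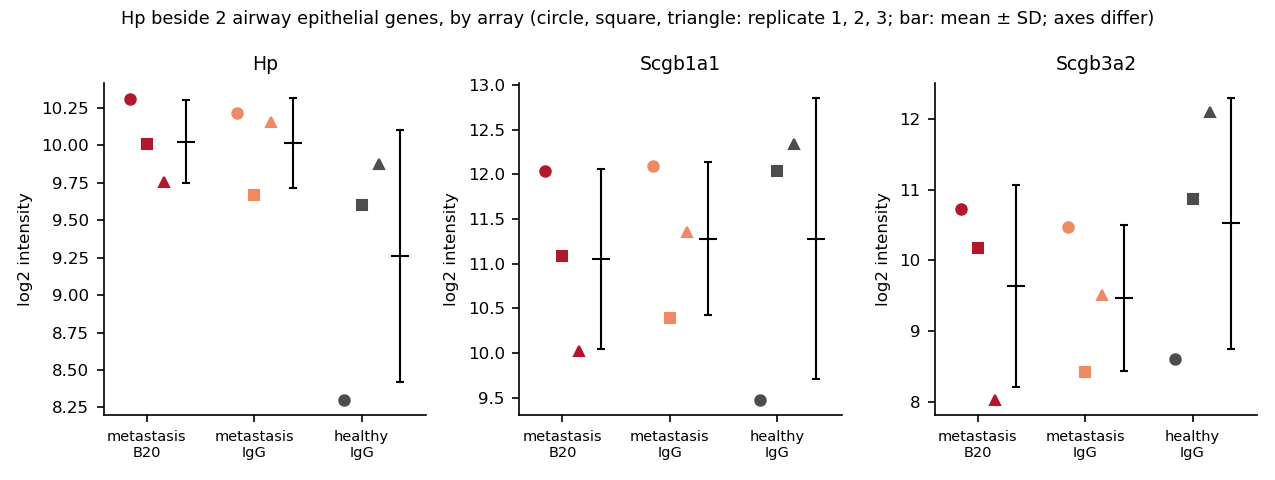
Log2 intensity (vertical axes, which differ) of Hp and the airway genes Scgb1a1 and Scgb3a2 in metastasis B20, metastasis IgG and healthy IgG arrays (1 point per array, bar for mean ± SD). The first healthy array is the lowest of its group in all panels, with Hp at 8.30 and Scgb1a1 at 9.47.

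Of the IL-6 signaling genes, Il6 and Osmr were called higher and Socs3 was not called. Il6 was at 7.92, 8.32 and 8.73 in metastasis B20, 8.45, 8.07 and 8.13 in metastasis IgG, and 7.22, 7.16 and 7.86 in healthy IgG arrays. The third healthy array came within 0.1 of the lowest metastasis B20 array without overlap. Il6 was higher by 0.80 ± 0.19 in metastasis IgG (fold 1.74, 95% interval 1.29 to 2.36, adjusted p = 0.0371 by limma). Osmr, the receptor chain that joins gp130 to bind oncostatin M, was at 12.52, 12.49 and 12.51 in metastasis B20, 12.41, 12.19 and 12.55 in metastasis IgG, and 11.98, 11.89 and 11.95 in healthy IgG arrays. All metastatic arrays were above all healthy arrays, by 0.44 ± 0.10 for metastasis IgG (adjusted p = 0.0341 by limma). Socs3, the feedback inhibitor of gp130, was at 12.30, 12.13 and 12.22 in metastasis B20, 12.24, 12.36 and 12.11 in metastasis IgG, and 12.16, 12.09 and 12.14 in healthy IgG arrays, which overlap. Its difference of 0.11 ± 0.09 between metastasis IgG and healthy IgG did not pass (adjusted p = 0.527 by limma, 95% interval -0.09 to 0.31).

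The calls of Lcn2, Lbp, Il6 and Osmr stood close to the threshold. With each array left out in turn, 3 to 5 of the 9 genes were called: 3 without the first or the third metastasis IgG array, 5 without the second, and 4 without any of the healthy arrays, while 869 to 1478 of all genes were called, against 1640 with all arrays. In these fits, Lcn2 was called 2 times of 6, and Lbp, Il6 and Osmr 1 time each, at adjusted p up to 0.0696, 0.116, 0.121 and 0.111 by limma.

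Markers of macrophages moved with the same contrast. Of 14, 10 were called higher in metastasis IgG, led by the complement chain C1qa (2.64 ± 0.14), the tetraspan protein Ms4a7 (2.0 ± 0.10) and C1qb (1.74 ± 0.19), whereas Fcgr1, Itgam, Adgre1 and Ptprc, the gene of CD45, were not called. Their summed intensity was 14601 to 19713 in metastasis B20, 15510 to 17410 in metastasis IgG and 6272 to 9394 in healthy IgG arrays. Of 9 neutrophil markers, S100a9 alone was called higher in metastasis IgG (0.65 ± 0.16), with sums of 2293 to 2635 in metastasis B20, 1814 to 2239 in metastasis IgG and 1589 to 1904 in healthy IgG arrays. The fibroblast collagens Col1a1 (1.48 ± 0.14), Col1a2 (1.44 ± 0.20) and Col3a1 (0.98 ± 0.15) were higher and the fibroblast enzyme Inmt lower (-1.06 ± 0.20) in metastasis IgG, and the sums of 10 fibroblast markers overlapped at 15389 to 18806 in metastasis B20, 14870 to 18606 in metastasis IgG and 10730 to 18504 in healthy IgG arrays. Of 8 pericyte and smooth muscle markers, Pdgfrb (1.18 ± 0.24) and Rgs5 (1.06 ± 0.21) alone were called higher in metastasis IgG. The sums of these 8 markers overlapped, at 5748 to 6917 in metastasis IgG and 4103 to 6291 in healthy IgG arrays. Of 5 mesothelial markers, Wt1 alone was called higher (1.13 ± 0.20), and the list had a median difference of -0.08. The mesothelial sums also overlapped, at 803 to 899 in metastasis IgG and 769 to 985 in healthy IgG arrays. None of 4 measured hepatocyte markers was called, and their sums were 1095 to 1201 in metastasis B20, 1174 to 1311 in metastasis IgG and 1155 to 1253 in healthy IgG arrays. In a sorted bulk sample, more RNA per EC and more cells of another type cannot be told apart, and the part of macrophages and neutrophils in the values of Lrg1, Serpina3n, Saa3, Lcn2, Hp and Il6 was not tested.

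Metastasis B20 was set against metastasis IgG to ask which changes of metastatic ECs depend on VEGF. None of the 9 genes was called in metastasis B20 against metastasis IgG arrays, and none of 18193 genes was (percent called 0 by limma), while 8.04% of all genes had an unadjusted p under 0.05. The differences ran between -0.02 for Socs3 and 0.24 for Lcn2, with a median of 0.11 against -0.01 over all genes, and 8 of the 9 were positive. The upper ends of their 95% intervals were 0.33 for Lrg1, 0.29 for Serpina3n, 0.44 for Saa3 and 0.36 for Osmr, and the lower ends -0.17, -0.10, -0.13 and -0.12 in the same order. Differences within these bounds could not be told from 0 with 3 arrays per group. Intervals were wider for Il6 (-0.33 to 0.55) and Hp (-0.40 to 0.41). Lbp differed by 0.23 ± 0.10 (unadjusted p = 0.0482, adjusted p = 0.619 by limma) and Lcn2 by 0.24 ± 0.11 (unadjusted p = 0.0514, adjusted p = 0.625), in the direction away from healthy lungs. Of 9 neutrophil markers, none was called in this comparison and 7 had positive differences, among them S100a8 (0.45 ± 0.13, unadjusted p = 0.00809, adjusted p = 0.459 by limma). The part of neutrophils in the Lcn2 difference was not tested. Serpina3n and Lbp had no overlap between the 2 groups, 2 of 9 and both higher, against 13.1% of all genes and 6.20% with the higher values in metastasis B20.

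**Figure D3:**
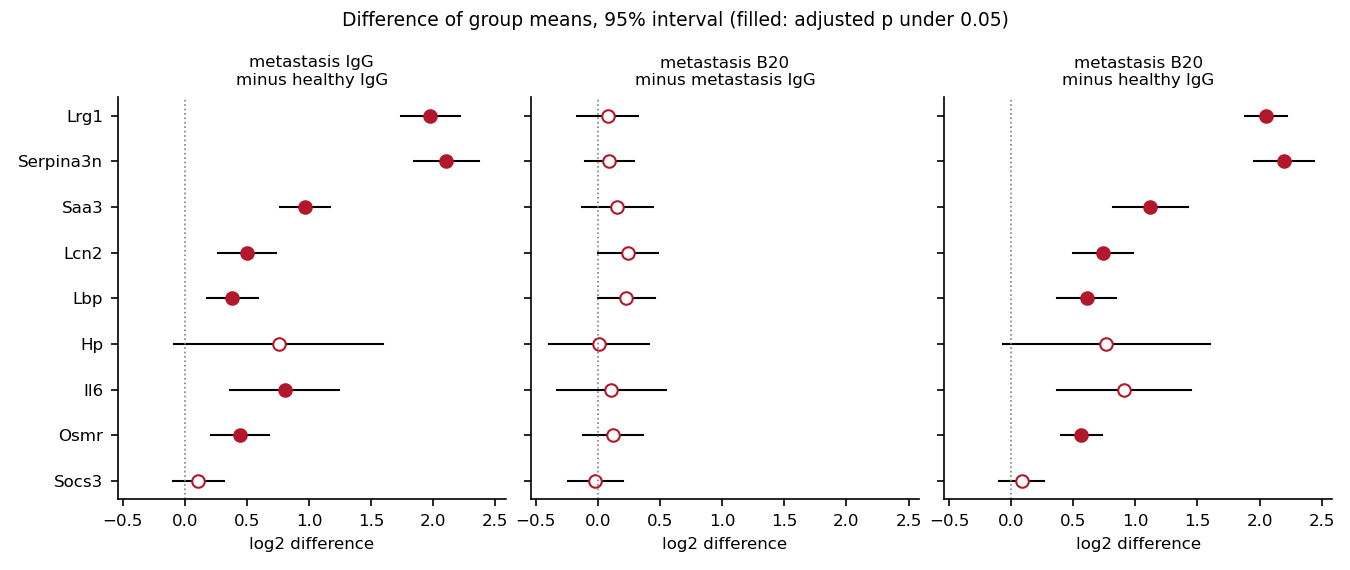
Differences of group means in log2 units (horizontal axes) for the 9 measured genes in 3 comparisons, with 95% intervals as lines and filled points where the adjusted p was under 0.05. In metastasis B20 minus metastasis IgG every interval but that of Lbp (0.00 to 0.45) includes 0, while Lrg1 and Serpina3n lie near 2 in both comparisons with healthy IgG.

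Against the same healthy IgG arrays, metastasis B20 arrays were higher in 6 of the 9 genes, namely Lrg1, Serpina3n, Saa3, Lcn2, Lbp and Osmr, where 4.15% of all genes were called higher, 2.29% lower and 6.44% in either direction. Lrg1 was higher by 2.05 ± 0.07 and Serpina3n by 2.20 ± 0.11 (adjusted p = 7.2e-06 and 2.74e-05 by limma). Saa3 followed with 1.12 ± 0.13, Lcn2 with 0.74 ± 0.10, Lbp with 0.61 ± 0.10 and Osmr with 0.56 ± 0.07. Il6 had a difference of 0.91 ± 0.24 with no overlap of arrays and did not pass (adjusted p = 0.0615 by limma). Hp (0.76 ± 0.36) and Socs3 (0.09 ± 0.08) did not pass either. Arrays did not overlap in 7 of the 9 genes, against 26.9% of all genes and 13.8% with the higher values in metastasis B20. With each array left out in turn, 5 to 7 of the 9 genes were called, and Lbp lost its call without the second healthy array (adjusted p = 0.0506). In these fits, 645 to 1139 of all genes were called, against 1172 with all arrays. Of the neutrophil markers, 4 of 9 were called higher in metastasis B20 against healthy IgG, among them S100a8 (1.12 ± 0.20) and S100a9 (0.89 ± 0.14), beside 9 of 14 macrophage markers.

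For Osmr, Lbp and Socs3, several probe sets gave values, and these did not always move alike. In the fit over all 34945 probe sets, 7.41% were called in metastasis IgG against healthy IgG, 5.41% in metastasis B20 against healthy IgG and 0 in metastasis B20 against metastasis IgG. The probe sets of Osmr gave 0.44, 0.44 and 0.39 in metastasis IgG minus healthy IgG, the last with overlapping arrays. The second probe set of Lbp was at 9.0, 9.03 and 9.40 in metastasis B20, 8.87, 8.66 and 8.84 in metastasis IgG, and 8.85, 8.96 and 8.69 in healthy IgG arrays. It showed no step between metastasis IgG and healthy IgG (-0.04 ± 0.10) but a difference of 0.35 ± 0.13 between metastasis B20 and metastasis IgG (unadjusted p = 0.0234, adjusted p = 0.583 by limma over probe sets). The mean of both Lbp probe sets was higher by 0.17 in metastasis IgG than in healthy IgG and was not called (adjusted p = 0.235). Socs3 differed most between probe sets. Its probe set of plain suffix (_at) was at 11.88, 11.96 and 11.92 in metastasis B20, 11.68, 11.62 and 11.62 in metastasis IgG, and 11.53, 11.50 and 11.44 in healthy IgG arrays. There the 3 groups formed separate steps, of 0.28 ± 0.08 for metastasis B20 over metastasis IgG (unadjusted p = 0.00904, adjusted p = 0.51 by limma) and 0.43 ± 0.08 for metastasis B20 over healthy IgG (adjusted p = 0.0182). The other 2 probe sets, whose suffix (_x_at) marks probes that can bind other transcripts, gave -0.02 and -0.15 for metastasis B20 minus metastasis IgG, so that the direction of Socs3 under B20 depends on the probe set.

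**Figure D4:**
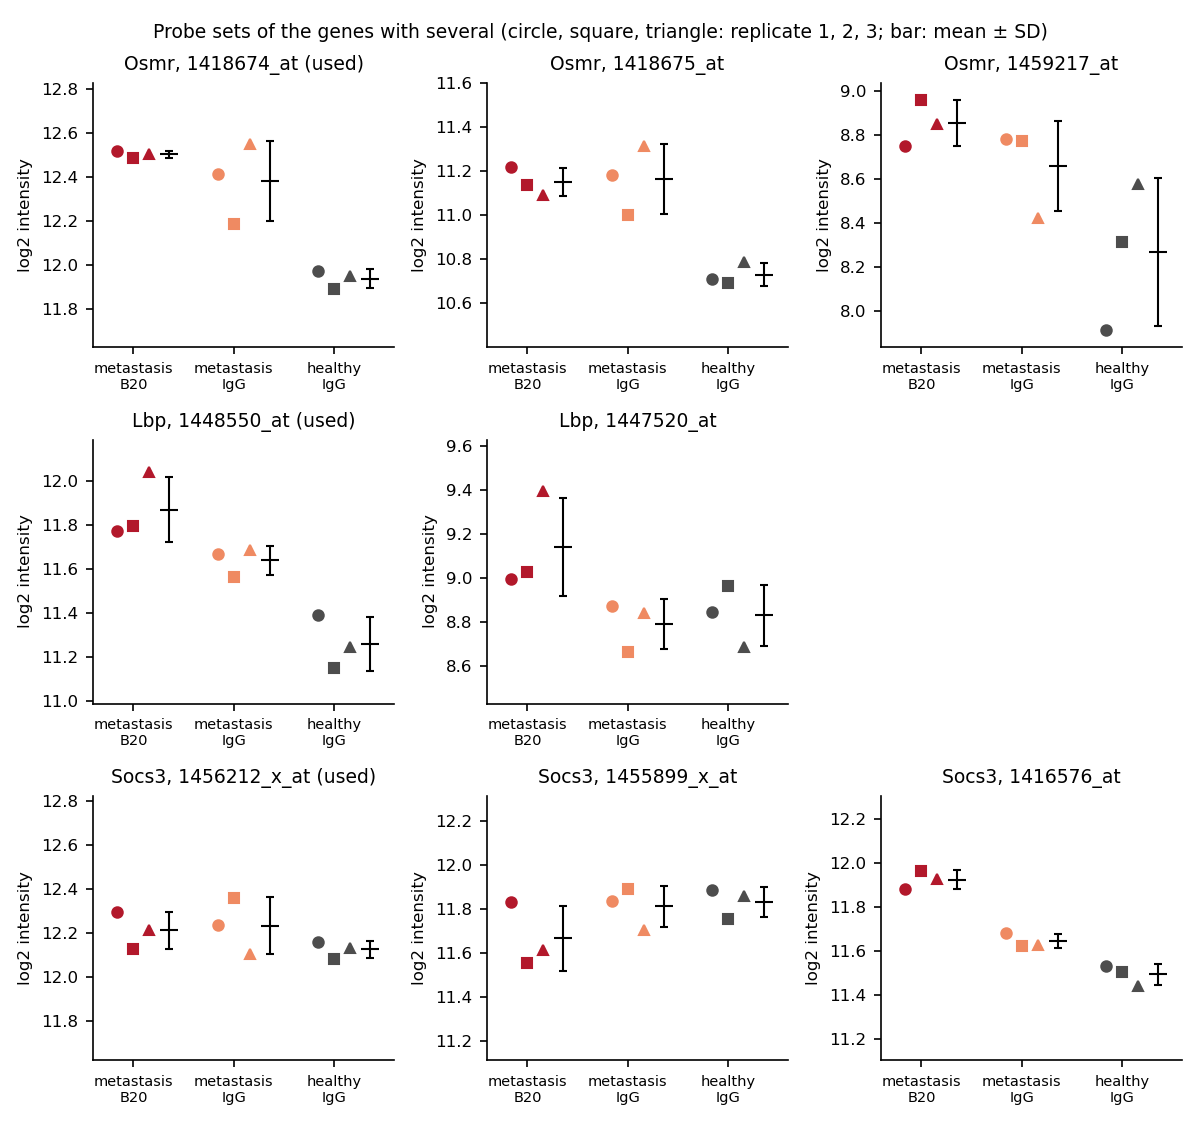
Log2 intensity (vertical axes, which differ) of every probe set of Osmr, Lbp and Socs3 in metastasis B20, metastasis IgG and healthy IgG arrays (1 point per array, bar for mean ± SD). The Socs3 probe set of plain suffix (_at) separates the 3 groups, at 11.88 or above in metastasis B20 and 11.53 or below in healthy IgG arrays, and the other Socs3 probe sets overlap.

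In the wider pathway, calls fell on a few ligands, STAT3 targets, acute-phase genes and inducers. Of 69 further genes measured among 79 listed, 10 were called higher and 2 lower in metastasis IgG against healthy IgG, where 5.55% of all genes were called higher and 3.46% lower. Leaving out each array in turn gave 9 to 11 calls among the 69, and 869 to 1478 over all genes. The median difference of the 69 genes was 0.06, against -0.0011 over all genes. The lists were also chosen with earlier results of these data known, so these counts are not independent evidence. Among 7 ligands of the IL-6 family, Il6 and Lif, leukemia inhibitory factor, were called higher and Clcf1, a cytokine of the same family, was called lower. Lif was at 8.23, 8.03 and 8.16 in metastasis B20, 8.15, 8.18 and 8.02 in metastasis IgG, and 7.74, 7.57 and 7.74 in healthy IgG arrays (0.43 ± 0.09 for metastasis IgG, adjusted p = 0.0202 by limma), and its call was lost in 4 of 6 fits with an array left out. The second probe set of Lif gave 0.23 with overlapping arrays. Clcf1 was at 10.29, 10.11 and 9.99 in metastasis B20, 9.85, 9.88 and 9.95 in metastasis IgG, and 10.51, 10.34 and 10.47 in healthy IgG arrays. The metastasis B20 arrays of Clcf1 lay between the other groups, and the difference of metastasis IgG and healthy IgG was -0.54 ± 0.08 (adjusted p = 0.0054 by limma).

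Among 7 receptor chains, Osmr alone was called. Il27ra, the IL-27 receptor chain that pairs with gp130, came next with 0.27 ± 0.09 and did not pass (adjusted p = 0.102 by limma). The 7 kinases and transcription factors of the pathway, Stat3 among them, had no call. Cebpb, a C/EBP factor of the acute phase, differed by 0.45 ± 0.14 (adjusted p = 0.0867) with -0.04 in its second probe set, and the kinase Tyk2 by -0.30 ± 0.10 (adjusted p = 0.105). Of the 5 feedback genes of the SOCS and PIAS families none was called, and 4 had negative differences, among them the STAT5 inhibitor Cish (-0.26 ± 0.08, adjusted p = 0.0895 by limma) and Socs2 (-0.24 ± 0.10, adjusted p = 0.174).

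Of 12 known STAT3 targets, 3 were called higher and none lower, against 5.55% and 3.46% of all genes. Myc, the growth factor-induced transcription factor, was at 10.24, 10.68 and 10.53 in metastasis B20, 10.52, 10.37 and 10.17 in metastasis IgG, and 8.48, 8.30 and 8.40 in healthy IgG arrays. Timp1, an inhibitor of matrix metalloproteinases, differed by 0.78 ± 0.10 and Bcl3, a nuclear IkB protein, by 0.63 ± 0.09 between metastasis IgG and healthy IgG (adjusted p = 0.00281 and 0.00497 by limma). These 3 calls were kept with each array left out in turn. Other targets of STAT3, such as Pim1, Junb, Mcl1, Fos and Icam1, were not called. Ccnd1 was higher by 0.29 ± 0.08 in metastasis IgG and was not called either (adjusted p = 0.0621 by limma).

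Of 25 other acute-phase genes, 4 were called higher in metastasis IgG and none lower, against 5.55% and 3.46% of all genes. Steap4, a metalloreductase induced by inflammatory cytokines, was at 9.03, 8.85 and 9.0 in metastasis B20, 9.15, 8.82 and 8.77 in metastasis IgG, and 7.71, 7.93 and 7.75 in healthy IgG arrays, a difference of 1.12 ± 0.12 for metastasis IgG with 0.09 in its second probe set. Ptx3, the long pentraxin that ECs release on inflammation, differed by 0.96 ± 0.19 with 0.05 in its second probe set, and lost its call without the first or the third metastasis IgG array. Itih3, a heavy chain that binds hyaluronan, differed by 0.72 ± 0.11. The IL-1 receptor antagonist Il1rn differed by 0.56 ± 0.08, with 0.37 and 0.16 in its other probe sets. The classical liver genes of the response, such as Crp, Apcs, Orm1, Fga, Fgb, Saa1 and Saa2, were not called in this comparison. These named genes were dim, with means over the 9 arrays from 6.19 (Fga) to 7.83 (Fgb), against a median of 8.89 over all genes. At such levels a missing call does not separate an unchanged gene from one without signal. Of the Serpina3 cluster, 3 of 11 genes were measured: Serpina3n was called, Serpina3i had 0.27 ± 0.13 (adjusted p = 0.25 by limma) and Serpina3a was not called.

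Upstream inducers of the response moved in both directions. Il1b was at 10.02, 9.61 and 9.87 in metastasis B20, 9.44, 9.29 and 9.47 in metastasis IgG, and 8.11, 8.88 and 8.78 in healthy IgG arrays, and was called higher in metastasis IgG by 0.81 ± 0.19 (adjusted p = 0.0331 by limma). Il1a was at 8.03, 7.67 and 7.83 in metastasis B20, 7.92, 8.14 and 8.06 in metastasis IgG, and 8.62, 8.35 and 8.69 in healthy IgG arrays, and was called lower by -0.51 ± 0.11 (adjusted p = 0.0253). Both calls were lost in 4 of 6 fits with an array left out. Their receptor Il1r1 was higher by 0.50 ± 0.08, with 0.06 in its second probe set, and Tnf and Nfkbia were not called. The part of macrophages and neutrophils in the values of Il1b and the other pathway genes, Osm among them, was not tested.

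**Figure D5:**
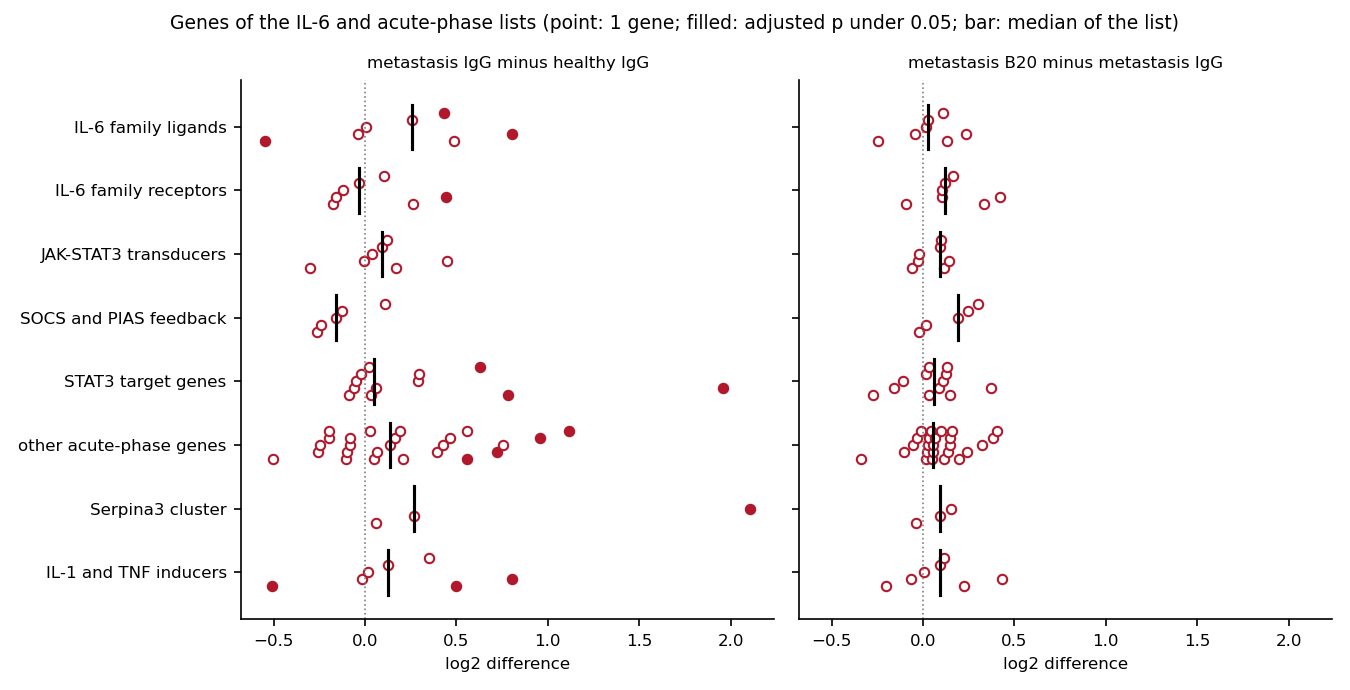
Log2 differences (horizontal axes) of metastasis IgG minus healthy IgG and metastasis B20 minus metastasis IgG for the genes of 8 lists, with 1 point per gene, filled where the adjusted p was under 0.05, and a bar for the median of each list. Calls occur in the first comparison only, with Serpina3n at 2.11 and Myc at 1.96 farthest to the right.

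Under B20, none of the 69 further genes was called against metastasis IgG, and their median difference was 0.09, against -0.01 over all genes. The smallest p-values belonged to Il1b (0.43 ± 0.12, unadjusted p = 0.00568, adjusted p = 0.433 by limma), Cish (0.30 ± 0.09, unadjusted p = 0.00708, adjusted p = 0.447) and Il27ra (0.34 ± 0.10, unadjusted p = 0.00862, adjusted p = 0.459). Cish was at 11.64, 11.58 and 11.61 in metastasis B20, 11.21, 11.35 and 11.38 in metastasis IgG, and 11.52, 11.59 and 11.62 in healthy IgG arrays, so that its metastasis IgG arrays were the lowest. Il27ra was at 10.29, 10.09 and 10.11 in metastasis B20, 9.77, 9.75 and 9.96 in metastasis IgG, and 9.57, 9.60 and 9.52 in healthy IgG arrays, which form 3 steps without overlap. The shared receptor chain Il6st, described after its values were seen, had 4 probe sets with differences of 0.17, 0.22, 0.38 and 0.43 between metastasis B20 and metastasis IgG, and the first of them, which represents the gene, did not pass (adjusted p = 0.655 by limma). The STAT3 target Ccnd1, also described after its values were seen, went the other way, with -0.27, -0.42 and -0.37 in its 3 probe sets. The first of these, which represents Ccnd1, did not pass (unadjusted p = 0.0179, adjusted p = 0.502 by limma). Against healthy IgG, 18 of the 69 genes were called higher and 2 lower in metastasis B20, where 4.15% of all genes were called higher and 2.29% lower, and 12 were called in all without the third metastasis B20 array (736 over all genes). Il27ra (0.60 ± 0.08, adjusted p = 0.00548 by limma) and the ligand Osm (0.62 ± 0.12, adjusted p = 0.0236) were among the higher ones, and Osm kept its call in 1 of 6 fits with an array left out. Saa1 (-0.84 ± 0.16, adjusted p = 0.0208) and Il1a (-0.71 ± 0.12, adjusted p = 0.0132) were lower. Saa1, a serum amyloid A of the liver that like Osm was picked after its values were seen, had 0.05 in its second probe set and lost its call without any of the metastasis B20 arrays, and Il1a lost its call without the third healthy array.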

How the data were processed

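RNA of sorted ECs was labeled with a 3' amplification kit for small inputs and hybridized to 1 array per sample. Background correction, quantile normalization and summary per probe set were done by the authors with RMA (Chipster software), so the deposited unit is the log2 intensity. Of 45101 probe sets, 34945 named a single gene and were no controls. Each of 18193 genes was represented by its probe set with the highest mean over the 9 arrays. Pairs of groups were fitted with lmFit and eBayes in limma 3.58.1 (R 4.3.3), with Benjamini-Hochberg adjustment over all genes and calls at an adjusted p under 0.05. The fit was checked on simulated data. Summed marker intensities were taken after reversing the log2 scale. Arrays give no counting depth, so precision rests on 3 arrays per group.

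The genes and lists were chosen with earlier results of these data known. Named were all 9 measured genes, per pathway list up to 4 called genes with the largest difference (otherwise the 2 of smallest p), the 3 pathway genes of smallest p under B20, and up to 3 called genes per cell type list. Other named genes were chosen after their values were seen. Alternatives covered normalization, moderation, array weights, a fit of all 9 arrays, probe set choice, dim genes, thresholds, a replicate block and each array left out.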

Additional observations from a re-analysis of the deposited data

How the results depend on the processing

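The number of the 9 genes called in metastasis IgG against healthy IgG, 7 with all arrays, was 3 to 5 with each array left out, 4 with the replicate block and 4 under the thresholds of the study (log2 difference over 0.75, p under 0.05, adjusted p under 0.25). Of all 18193 genes, 1640 were called with all arrays, 869 to 1478 with each array left out and 1176 with the replicate block. All genes were not counted under the thresholds of the study, so the 4 there has no background. The labels' replicate numbers did not pair the arrays: same-numbered deviations correlated at -0.076 to 0.014, and 2 of 9 array pairs matched their own number best. With the replicate block, 0 of the 9 genes were called in metastasis B20 against metastasis IgG, and 0 of 18193 over all genes. In metastasis B20 against healthy IgG, 7 of the 9 were called with the block, and 841 of 18193 over all genes. For metastasis B20 minus metastasis IgG, signs turned for Hp (-0.082 with array weights, and -0.16 to 0.14 with each array left out, negative without the second metastasis IgG array (-0.16) or the first metastasis B20 array (-0.13)), Il6 (-0.093 to 0.31, negative without the third metastasis B20 array) and Socs3 (0.038 with the mean of its probe sets, 0.28 without suffixed probe sets, and -0.087 to 0.042 with each array left out, positive without the second metastasis IgG array (0.042) or the second metastasis B20 array (0.021)), none of them called. In the comparisons with healthy IgG, no difference of the 9 genes changed sign under these alternatives, although single probe sets that do not represent their gene were negative (Lbp -0.04 and Socs3 -0.02 in metastasis IgG, Socs3 -0.17 in metastasis B20). The further pathway genes called in metastasis B20 against healthy IgG numbered 12 to 18 with each array left out, against 20, an alternative added after seeing the data, and 19 with the replicate block. Over all genes, 645 to 1139 were called with each array left out, 1172 with all arrays and 841 with the replicate block. The cause of these changes was not tested. A filter on dim genes left out Saa3 and Il6, and leaving out suffixed probe sets removed Saa3 and Lcn2, so these have no value there.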
